A study of Mus musculus with 8 samples.

Results

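The data described here are the 4965 autosomal genes of wild type (WT) mouse embryonic fibroblasts (MEFs) whose transcripts could be assigned to both parental genomes, read as 129S1/SvImJ (129) against CAST/EiJ (CAST) transcripts. A gene was taken when it had at least 50 allele-assigned reads and when the median 129 share of its 10 nearest such genes on each side lay between 10% and 90%. This left 4965 of 8862 autosomal genes with that many reads, of 40935 autosomal gene IDs and 46078 gene IDs in all. The 129 share of a gene is its 129 reads as a percentage of its 129 and CAST reads.

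All samples were labelled as female MEFs of a cross between the strains 129S1/SvImJ and CAST/EiJ, where the study's methods name the 129 X as that of 129Sv4/Jae. The 4 groups, of 2 samples each, were WT cells, cells with Xist deleted on the inactive X (XiΔXist), and XiΔXist cells that received a scrambled short hairpin (shSCR) or hairpins against Yy1 (shYY1). The authors pooled the 2 samples of each group before reads were assigned, so each group has 1 value per allele, there is no replicate check, and no p-value is given. The WT and XiΔXist lines are clonal, and the inactive X, on which the deletion lies, is the 129 X in all of them.

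In a hybrid cell, both alleles of a gene sit in the same nucleus and see the same transcription factors. A true difference between their transcripts is known to arise in cis, from the DNA of the allele itself or from a state of chromatin fixed on it, while a counted difference can also come from how reads were mapped. Promoter and enhancer variants, splice or decay differences, parental imprinting and random one-allele expression kept through cell division are all known to give such differences. With 1 cross and 1 pool per line, strain, parent of origin and a state fixed when the clone was made cannot be told apart. A pool also does not tell an allele that is low in every cell from one that is silent in some cells.

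The WT pool held 24310035 allele-assigned reads, 18759610 from 129 and 5550425 from CAST, of which 20.2% were mitochondrial. The XiΔXist pool held 28329701 reads, shSCR 2393545 and shYY1 2504345. The 4965 genes took 9992216 of the WT reads, 53.9% of them from 129, with a median of 500 reads a gene. For the fibroblast label, 22 fibroblast markers were read, which summed to 9716 allele-assigned CPM (reads scaled to the same library total) in WT. Their levels were uneven, with a median of 42.7 CPM, a highest value of 3273 CPM for Vim and 4 markers under 10 reads. Among these, S100a4 and Twist1 were at 0 reads, while 28 markers of other cell types summed to 12.1 CPM and 18 of them were at 0. A 0 says little here, since a transcript is counted only over strain variants. Slc25a5, a mitochondrial carrier that most cells use, was at 0 and 0 reads as well. It is matched at 98.3% identity by the pseudogene Gm5560, and the cause of its 0 was not tested.

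The surroundings of a gene set the share against which it was read. For 3897 of the 8862 genes the local median lay above 90% 129, and for 0 it lay under 10%. Of these genes 81.9% had themselves a share of 98% or more, which 1 full genome of each strain would not give, so in these regions the data go against the labelled cross. They were left out, and of the 3647 with enough reads in XiΔXist, 99% had surroundings above 90% 129 there too. Over the 4965 genes kept, the local median ran from 18.5% to 90%, with a median of 55.1% and 90% of the genes between 36.2% and 75.3%. The departure of a gene is the log2 odds of its 129 against CAST reads, with 0.5 added to each, minus the log2 odds of its local median. A gene was called when the departure reached 2-fold (1 on the log2 scale) and the Wilson 95% interval of its share left out the local median. Such intervals cover counting error only.

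The share from which genes departed differed by chromosome and by line, which is why each gene was read against its neighbours in the same pool. Over genes read in both lines, of which at least 80% of the neighbours had shares of 10% to 90%, chromosome 5 had a median share of 65.5% in WT and 52.2% in XiΔXist (613 genes), and chromosome 9 had 33.9% and 49.96% (284 genes). Chromosome 3 was close to even in both lines, at 51.5% and 52.1% (140 genes). The hairpin pools had medians of their own, such as 27.4% and 27.8% on chromosome 12, where WT had 47.7% and XiΔXist 50.6%.

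**Figure D1:**
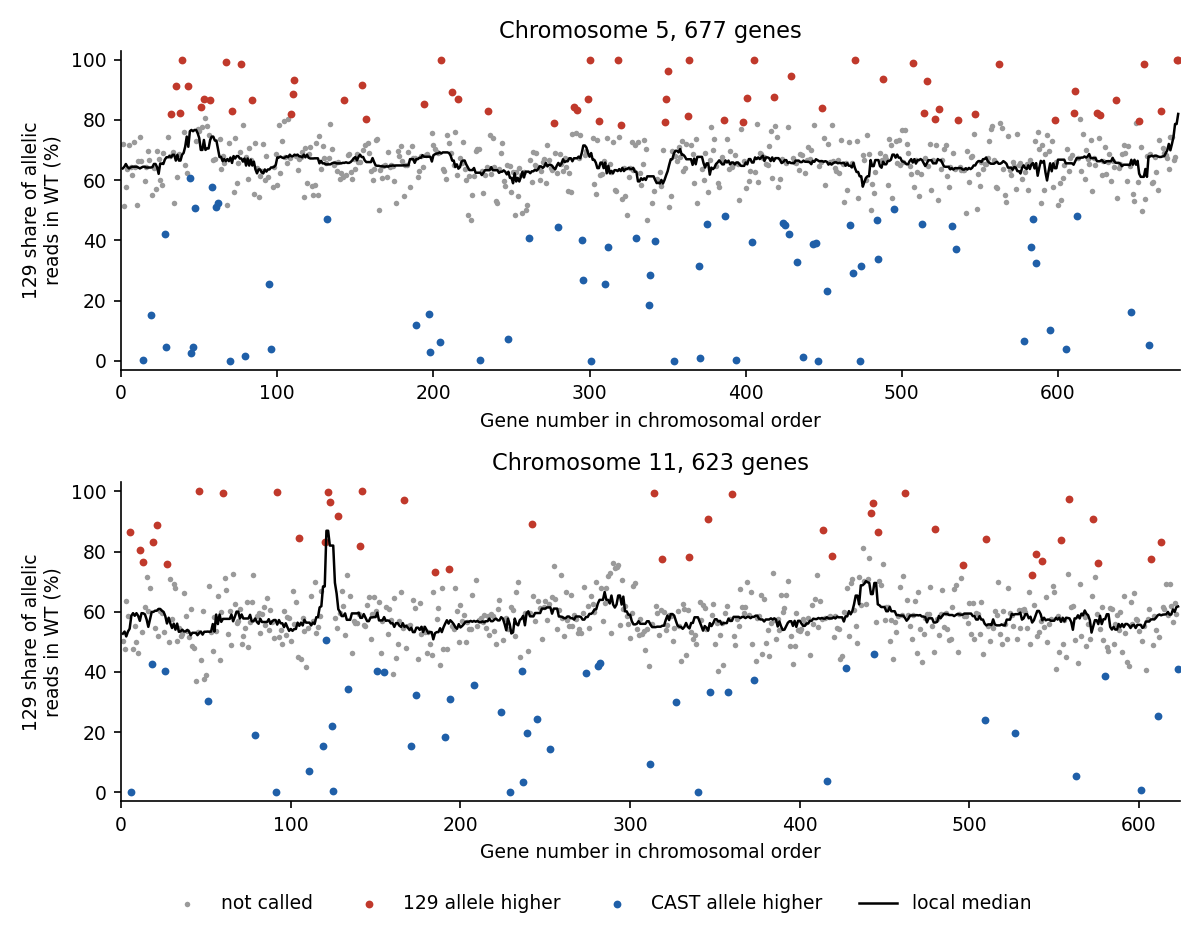
The 129 share of each gene (percent, y axis) by gene order (x axis) on chromosomes 5 (677 genes) and 11 (623 genes) in WT. The line is the local median, red points are genes called towards 129, blue points genes called towards CAST and grey points genes not called. Called genes lie above and below the line along the whole of both chromosomes.

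The WT pool had 518 genes called towards 129 (10.4%) and 523 called towards CAST (10.5%), 21.0% of the genes in all. Most genes lay close to their surroundings: the median size of a departure was 0.42 on the log2 scale, and 62.8% were within 1.5-fold. The sizes were less evenly spread. Towards 129, 233 genes departed by 2- to 4-fold, 108 by 4- to 16-fold and 177 by more than 16-fold. Towards CAST the same classes held 290, 136 and 97 genes.

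The surplus of very large 129 departures lay at the edges of regions read from 129 only, as on chromosome 16, where Cip2a gave 38930 129 reads and 98 CAST reads against a local median of 89.6%. For that reason the genes were divided, after their values were seen, into 4440 of which at least 80% of the neighbours had shares of 10% to 90%, and 525 others. Among the 525, 57.1% were called. Of their 162 calls towards 129, 112 had a share of 98% or more. Of their 138 calls towards CAST, 129 had a share between 10% and 90%, as Thbs1, which encodes the matrix protein thrombospondin 1 (44484 and 70256 reads, 38.8% against a local 82.7%). Such a gene departs from neighbours that are read mostly from 129. The counts that follow are over the 4440 genes unless stated otherwise.

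Over these 4440 genes, 356 (8.02%) were called towards 129 and 385 (8.67%) towards CAST, and both directions had alike sizes. The 2- to 4-fold, 4- to 16-fold and larger classes held 202, 82 and 72 genes towards 129, and 215, 84 and 86 towards CAST. The other allele had 0 reads in 31 and 27 of them. The median size was 0.38 on the log2 scale and 66.6% of genes were within 1.5-fold. Chromosome 15 had the highest rate, with 6 of its 22 genes called towards 129 and 5 towards CAST (50%). Of its 285 genes with 50 or more reads in WT, 215 had a share of 98% or more. Matn2 and Rpl30, named below, are among the 22. Just inside the fold towards 129 lay Ern1, a sensor of unfolded protein (533 and 205 reads, 72.2%, 1.00 on the log2 scale), and just outside it Cep68, a centrosome protein (1517 and 578 reads, 72.4%, 0.99). Towards CAST, Col1a1, a chain of type I collagen, lay just inside (219 and 313 reads, 41.2%, -1.01) and Fstl1, a secreted glycoprotein, just outside (1549 and 1965 reads, 44.1%, -0.98).

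**Figure D2:**
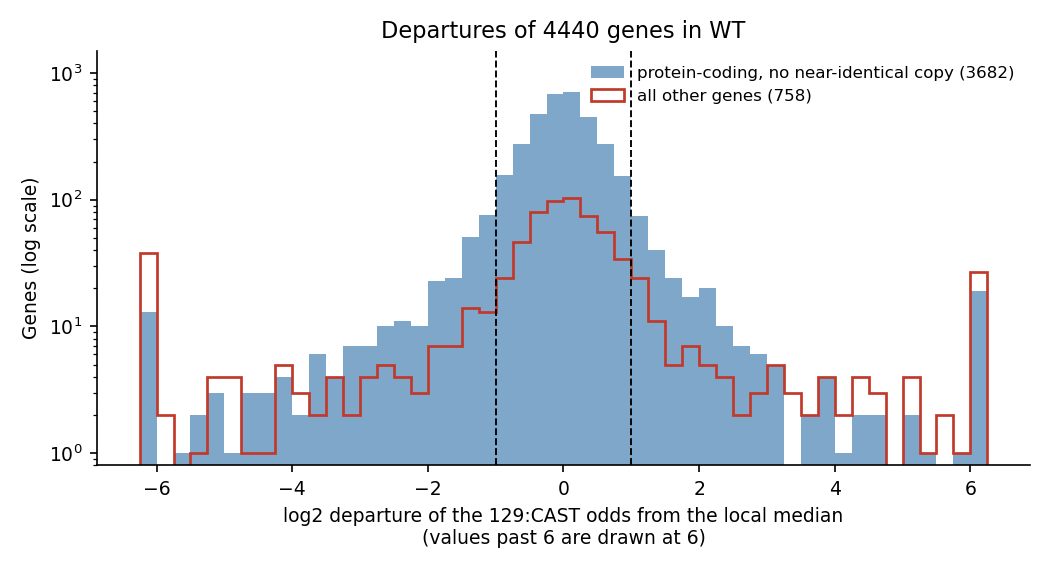
Histogram of the departures of the 4440 genes (log2, x axis; number of genes on a log axis, y), with protein-coding genes without a near-identical copy filled and all others outlined in red. Dashed lines mark 1 and -1, and values past 6 are drawn at 6. Genes lie on both sides of 0 in like numbers, and the other genes make up much of both tails.

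Apob and Fst were among the genes with the largest calls towards 129, and both had the same call in XiΔXist. Apob (chr12:7977648-8016835 of GRCm38), the protein core of lipoprotein particles, had 305 129 reads and 8 CAST reads, 97.4% (95% to 98.7%) against a local 48.8%, which is 37.7-fold. In XiΔXist it had 185 and 1 reads, 99.5%. Fst (chr13:114452290-114458951), which encodes follistatin, a secreted binder of activin, had 2327 and 94 reads, 96.1% (95.3% to 96.8%) against 41.1%. In the other pools Fst kept its direction, with 115 and 3 reads in XiΔXist, 49 and 5 in shSCR and 84 and 0 in shYY1. The level was not constant: Fst had 99.6 CPM in WT and 4.17 CPM in XiΔXist.

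Tm4sf1 (chr3:57285611-57301988), a tetraspanin-like surface protein, was the most read gene called towards 129 that overlaps no other gene. It had 31346 and 5366 reads, 85.4% (85.0% to 85.7%) against 52.0%, a departure of 2.43. Its share was higher still in the other pools, at 97.6% in XiΔXist (18349 and 459 reads), 96.2% in shSCR (758 and 30) and 95.9% in shYY1 (953 and 41). Every pool thus placed Tm4sf1 on the 129 side, and WT was the pool nearest to its surroundings.

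Spp1 (chr5:104435118-104441050), which encodes osteopontin, a secreted phosphoprotein of the matrix, had 32701 and 1826 reads, 94.7% (94.5% to 94.9%) against 65.7%, and overlaps another listed gene. XiΔXist had 314797 and 42267 Spp1 reads, 88.2%, shSCR 320 and 73, 81.4%, and shYY1 400 and 110, 78.4%. The 129 side thus held while the Spp1 level moved from 12604 CPM in XiΔXist to 164 CPM in shSCR. Thy1 (chr9:44043384-44048579), a surface glycoprotein used as a fibroblast marker, had 197 and 0 reads, at least 111-fold past its surroundings when 3 reads are put in place of 0. Thy1 had 667 and 2 reads in XiΔXist, 92 and 0 in shSCR and 115 and 0 in shYY1, so that nearly all of its transcripts came from 129 in every pool. Rnf7, a subunit of cullin ubiquitin ligases, had 74.4% against 39.0% in WT (1236 and 425 reads) and 82.4%, 88.8% and 90.7% in XiΔXist, shSCR and shYY1. Arl1, a small GTPase of the Golgi, had 95.7% in WT (550 and 25 reads) and 96.6%, 85.4% and 82.9% in the others.

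Other genes had the same call in WT and XiΔXist and lay under the fold in both hairpin pools. Ywhah, a 14-3-3 adaptor protein, had 3690 and 340 reads in WT, 91.6% (90.7% to 92.4%) against 67.7%, and 4582 and 644 in XiΔXist, 87.7%. It had 46 and 50 reads in shSCR, 47.9%, and 34 and 37 in shYY1, 47.9%. Wsb1, a substrate receptor of a ubiquitin ligase, fell in the same class, with 78.1% in WT (18583 and 5221 reads), 74.1% in XiΔXist and 53.9% and 54.1% in the hairpin pools. Cnn2, a calponin that binds actin, had 84.1%, 81.1%, 62.2% and 60.1% in the same order. Lap3, a leucine aminopeptidase, had 89.3%, 83.0%, 56.6% and 64.1%. Steap2, a metalloreductase, had 82.0%, 76.1%, 67.6% and 66.1%, and its departures in the hairpin pools, 0.98 and 0.81, lay just under the fold.

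Of the well-read WT genes called towards 129, Lpl and Postn did not carry the call to XiΔXist, and Efemp1 had too few reads there. Efemp1 (chr11:28853204-28926743), which encodes fibulin 3 of the elastic fibre family, had 5503 and 9 reads in WT, 99.8% against 55.7%. It was nearly silent in XiΔXist, with 10 and 3 reads, and had shares of 64.0% (171 and 96 reads) in shSCR and 63.1% (329 and 192) in shYY1. Lpl (chr8:68880491-68907448), lipoprotein lipase, had 3622 and 306 reads in WT, 92.2%, and 776 and 504 in XiΔXist, 60.6%. The hairpin pools again read Lpl from 129, with 83 and 0 and with 65 and 0 reads. Postn (chr3:54361109-54391037), periostin, a matrix protein of fibroblasts, had 8859 and 3058 reads in WT, 74.3% against 47.7%, and 1302 and 1607 in XiΔXist, 44.8%. Its share was 64.7% in shSCR and 64.7% in shYY1, with departures of 0.60 and 0.54 that lay under the fold.

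Among genes called towards CAST, Hif1a (chr12:73901375-73947530), the oxygen-regulated transcription factor subunit, was chosen after its values were seen. It had 9 129 reads and 7150 CAST reads in WT, 0.126% 129 against a local 49.2%. XiΔXist gave 16 and 10728 Hif1a reads, shSCR 0 and 288 and shYY1 0 and 340, so 129 transcripts were near or at 0 in every pool. Hif1a overlaps another listed gene. Plxdc2 (chr2:16356304-16755839), a membrane receptor of the plexin domain family, had 783 and 8642 reads in WT, 8.31% against 50.6%, which is 11.3-fold. Its 129 share was 1.55% in XiΔXist (39 and 2476 reads), 3.07% in shSCR (5 and 158) and 5.67% in shYY1 (8 and 133). All pools placed Plxdc2 on the CAST side.

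Pdpn, Ptx3 and Mme were also called towards CAST in WT and XiΔXist. Pdpn (chr4:143267431-143299564), podoplanin, a mucin-like glycoprotein of stromal cells, had 129 and 972 reads in WT, 11.7% against 59.8%, and 0 and 2680 in XiΔXist. Its shares in shSCR and shYY1 were 19% (20 and 85 reads) and 22.5% (31 and 107). Ptx3 (chr3:66219910-66225805), pentraxin 3 of innate immunity, had 470 and 4313 reads in WT, 9.83% against 52.1%, and 15.9%, 13% and 19.4% in XiΔXist, shSCR and shYY1. Ptx3 overlaps another listed gene. Mme, a membrane peptidase, had 94 and 651 reads in WT, 12.6%, 8 and 160 in XiΔXist, and 0 and 17 and 0 and 31 in the hairpin pools, which is under the minimum of 50.

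Vegfc, Etv1, Foxd1 and Dlc1 were called towards CAST in the same way. Vegfc (chr8:54077606-54187096), the growth factor of lymphatic vessels, had 83 and 482 reads in WT, 14.7% against 51.6%, and 20.4% in XiΔXist, with 32.2% in shSCR. Etv1, an ETS transcription factor, had 16.5% in WT (51 and 259 reads) and 18.0% in XiΔXist. Foxd1, a forkhead factor of stromal precursors, had 1 and 219 reads in WT, 0.455% (0.0803% to 2.53%), and 114 and 672 in XiΔXist, 14.5%. Dlc1, a GTPase-activating protein, had smaller departures in the same direction, with 25.8% in WT (1277 and 3670 reads), 35.1% in XiΔXist, 36.2% in shSCR and 40.7% in shYY1. For Foxd1 and Dlc1 the WT share was the lower one.

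Gclc (chr9:77754535-77794485), the catalytic subunit of the enzyme that limits glutathione synthesis, had 352 and 3060 reads in WT, 10.3% against 33.6%. It had 531 and 3780 reads in XiΔXist, 12.3%, with 26.6% in shSCR and 21.0% in shYY1, so Gclc was read mainly from CAST in all pools. Rps29, a protein of the small ribosomal subunit, had 81 and 1449 reads in WT, 5.29% against 50.7%, and 8.30% in XiΔXist. Mrps33, of the mitochondrial ribosome, had 9.68% in WT (110 and 1026 reads) and 11.7% in XiΔXist. Pdgfra, the receptor for platelet-derived growth factor that marks fibroblasts, had 40.8% against 62.8% in WT (484 and 701 reads), 22.7% in XiΔXist, 12.2% in shSCR and 12.7% in shYY1. Pdgfra overlaps another listed gene. Its relative Pdgfrb was called the other way, at 76.7% against 59.9% in WT (204 and 62 reads), and departed by 0.89 in XiΔXist.

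Slc5a7 and B3gnt5 could not be measured outside WT, and Gtpbp10 was under the fold in XiΔXist. Slc5a7 (chr17:54273590-54299034), the choline transporter of cholinergic neurons, had 1576 and 7536 reads in WT, 17.3% against 50.9%. It had 0 and 0 reads in XiΔXist, 8 and 16 in shSCR and 3 and 34 in shYY1. B3gnt5, a glycosyltransferase of lactosylceramide, had 1 and 399 reads in WT and 0 in the other pools. Gtpbp10, a mitochondrial GTPase, had 39 and 793 reads in WT, 4.69%, and 875 and 1524 in XiΔXist, 36.5%, where its departure was -0.98.

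**Figure D3:**
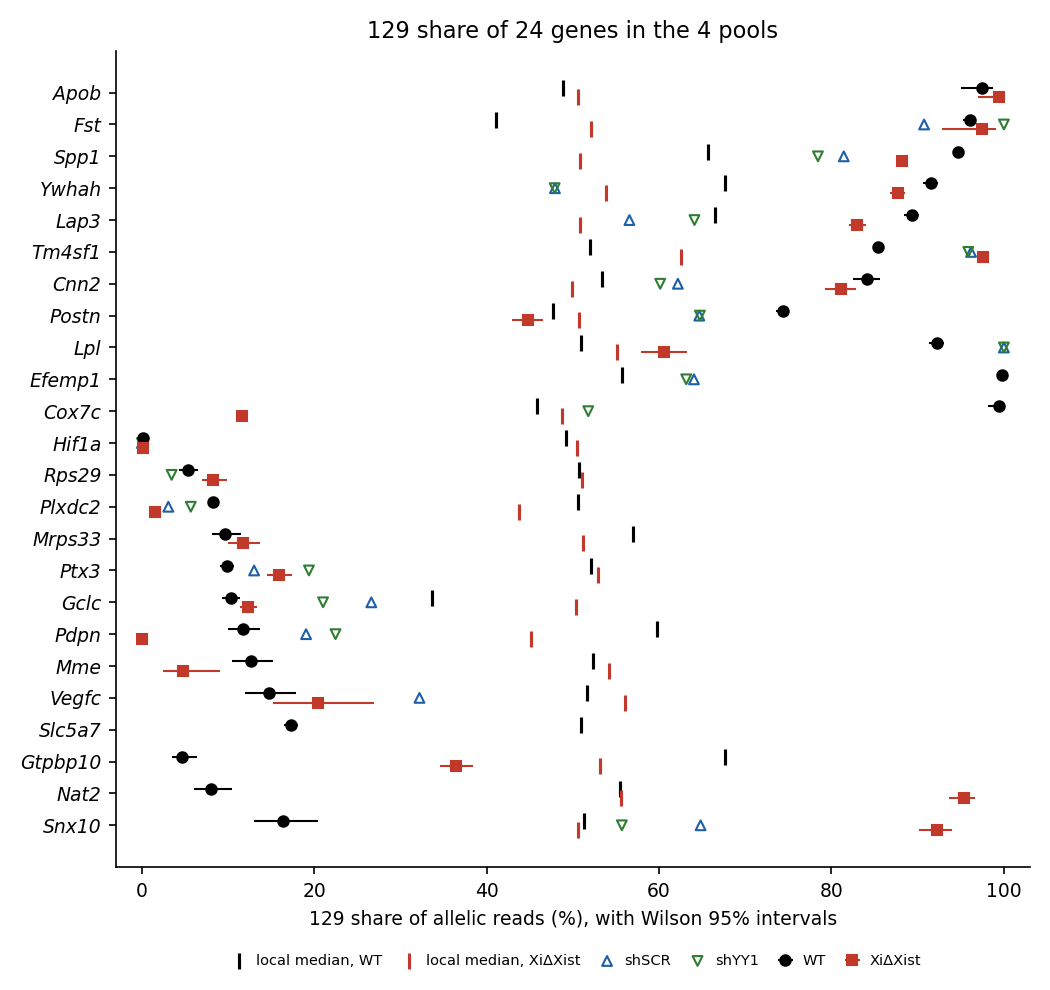
The 129 share (percent, x axis) of 24 genes in the 4 pools, with Wilson 95% intervals for WT and XiΔXist and ticks for the local medians. Points are left out where a pool had under 50 reads or surroundings outside 10% to 90%. Tm4sf1, Plxdc2 and Hif1a keep their side in every pool shown, and Ywhah lies at 47.9% in both hairpin pools.

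The XiΔXist pool gave a second reading of the alleles. It had no part in which genes were kept or called in WT, but several of the genes described above were chosen because they recurred in it. Under the same rule it had 541 genes called towards 129 (11.0%) and 526 towards CAST (10.7%) of 4898. Of the 356 WT genes called towards 129, 306 could be read in XiΔXist, and 212 of them (69.3%) had the same direction past the fold. Of the 385 called towards CAST, 337 could be read, and 240 (71.2%) had it. Counting also departures under the fold, the direction was the same in 93.5% and 93.2%. Past the fold in the opposite direction lay 5 and 6 genes. Of 3558 genes not called in WT, 133 (3.74%) were called towards 129 and 107 (3.01%) towards CAST in XiΔXist.

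Large departures recurred more often than small ones. Past the fold in the same direction in XiΔXist were 202 of 367 genes at 2- to 4-fold (55.0%), 125 of 140 at 4- to 16-fold (89.3%) and 125 of 136 above 16-fold (91.9%). Among protein-coding genes without a near-identical copy and off the imprinted lists, the counts were 159 of 292 (54.5%), 73 of 88 (83.0%) and 30 of 40 (75%). Over 4201 genes the departures in WT and XiΔXist had a Pearson r of 0.853 and a Spearman coefficient of 0.742. The points share the cross, the genome used for mapping, the read length and the base composition of each gene, so any bias of mapping between the alleles is shared as well.

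**Figure D4:**
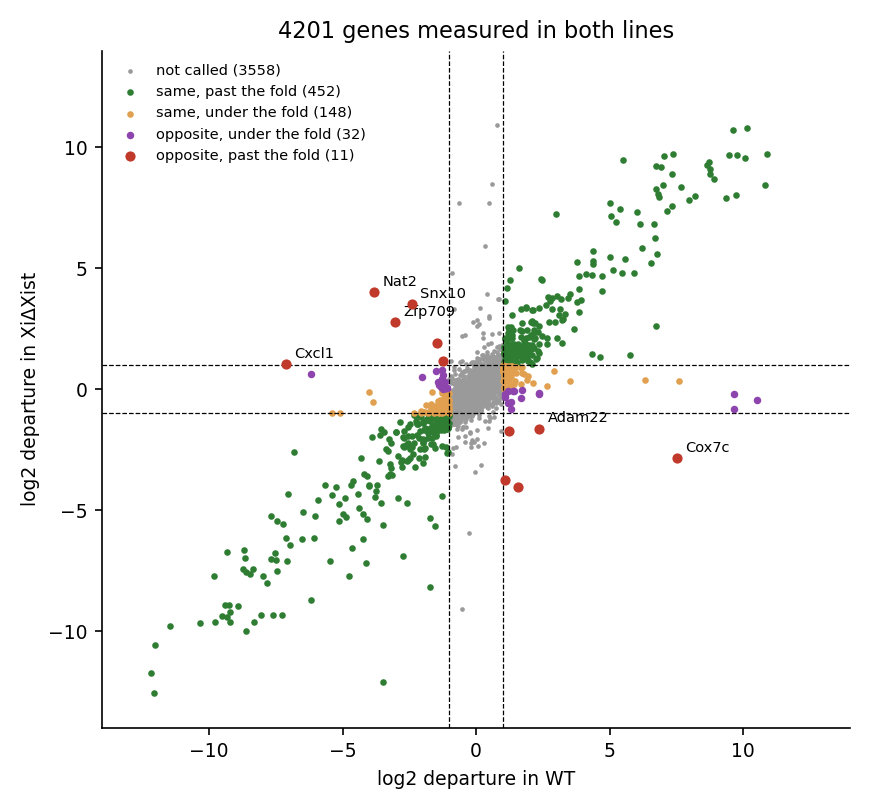
Departure in XiΔXist (log2, y axis) against departure in WT (log2, x axis) for 4201 genes, coloured by class: 3558 not called in WT, 452 in the same direction past the fold, 148 in the same direction under it, 32 opposite under it and 11 opposite past it. Called genes gather along the diagonal.

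The hairpin pools were far less deep, and the study lists longer reads for them than for WT and XiΔXist. Of the WT calls towards 129, 59 of 135 that could be read in shSCR (43.7%) and 54 of 140 in shYY1 had the same call. Of those towards CAST the counts were 74 of 138 and 73 of 138. Over 2330 genes read in all pools, 88.5% of departures were within 1.5-fold between WT and XiΔXist and 70.8% between shSCR and shYY1, against 64.2% to 65.2% between any pool of the first pair and any of the second. Among 165 genes with the same call in WT and XiΔXist that were read in all pools, 83 had it in both hairpin pools, 30 lay within 1.5-fold of their surroundings in both, and 4 (Prdx2, Gm21399, Llph and Emb) were past the fold the other way in both. Prdx2, a peroxide reductase, had 45 and 130 reads in WT and 46 and 138 in XiΔXist, but 71 and 27 in shSCR and 73 and 29 in shYY1. Depth, read length and the hairpin treatment move together between these pairs of pools, and their parts in the result cannot be told apart.

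A few genes were read from a single allele in WT. Loxl2 (chr14:69609068-69695834), a lysyl oxidase that crosslinks collagen, was chosen after its values were seen and overlaps another listed gene. It had 953 and 0 reads in WT, at least 191-fold past its surroundings, and 934 and 0 in XiΔXist. In shSCR it had 0 and 155 reads and in shYY1 2 and 294. There the whole of chromosome 14 had moved with it: 121 of 153 genes in shSCR and 117 of 150 in shYY1 had a 129 share of 2% or less, against 2 of 312 in WT and 2 of 337 in XiΔXist. The Loxl2 values of the hairpin pools are therefore no departure from its surroundings. Luzp1, a cytoskeletal leucine zipper protein at the limit of the 80% rule, had 1715 and 0 reads in WT, 1671 and 1 in XiΔXist, 540 and 0 in shSCR and 529 and 0 in shYY1, so its single allele was the same throughout. Luzp1 did not stand alone. With the adjacent called genes Kdm1a and Zbtb40 it formed a run with shares of 99.7% to 100% in WT and 99.9% to 100% in XiΔXist. Whether this run is a short region read from 129 only was not tested.

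The gene lists were read as counts beside the 16.7% of all 4440 genes called. Matrix genes were called in both directions. Of 17 collagens and other matrix proteins, 4 were called towards 129 (Postn, Spp1, Efemp1 and Fbn2) and 3 towards CAST (Col1a1, Matn2 and Emilin2), 41.2% in all. Matn2, a matrilin encoded on chromosome 15, had 44.8% against 66.4% in WT (426 and 525 reads) and 39.5% in XiΔXist. Of 18 matrix proteases and inhibitors, Adam22 and Adamts9 were called towards 129 and Mmp11 and Plau towards CAST. Plau, the urokinase activator of plasminogen, had 294 and 745 reads in WT, 28.3% against 57.1%, and 4911 and 11021 in XiΔXist, 30.8%. Of 11 fibroblast markers, 3 were called towards 129 (Postn, Thy1 and Pdgfrb) and 2 towards CAST (Pdgfra and Col1a1).

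Among detoxification enzymes most calls were towards CAST. Of 29, 9 were called towards CAST (Akr1b8, Aldh16a1, Cyp4v3, Nat2, Hmox1, Prdx2, Gclc, Gstz1 and Aldh7a1) and 1 towards 129 (Gpx7), 34.5% in all, and 7 of the 10 had the same call in XiΔXist. Cyp4v3, a fatty acid hydroxylase that overlaps another listed gene, had 84 and 561 reads in WT, 13%, and 53 and 324 in XiΔXist, 14.1%. Hmox1, which degrades haem, had 26.6% in WT (53 and 146 reads), 26.9% in XiΔXist, 24.8% in shSCR and 36.2% in shYY1. Akr1b8, an aldo-keto reductase, had 20.1% in WT (54 and 214 reads), 10.5% in XiΔXist and 24.1% in shSCR. Gstz1, of tyrosine breakdown, had 28.7% in WT (227 and 564 reads) and 30.4%, 14.1% and 14.7% in the others. Nat2, an acetyltransferase, went the other way in XiΔXist, with 48 and 551 reads in WT and 716 and 35 there.

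Ribosomal and respiratory chain genes were called in both directions. Of 29 cytosolic ribosomal proteins, 8 were called towards CAST, among them Rps6, Rpl5, Rpl6, Rpl26, Rpl38, Rps29 and Rpl30, and 3 towards 129, among them Rpl27 and Rpl35a, 37.9% in all, and 8 of the 11 had the same call in XiΔXist. Rpl5 had 1069 and 3571 reads in WT, 23%, and 14.8% in XiΔXist. Rps6, Rpl5, Rpl6, Rpl26 and Rpl27 have near-identical copies elsewhere in the genome, so their reads are uncertain. Rpl30 is matched at 97.7% identity by part of the pseudogene Rpl30-ps8, so its reads are uncertain as well. Of 28 mitochondrial ribosomal proteins, 4 were called towards 129 (Mrps18c, Mrps17, Mrps24 and Mrpl38) and 1 towards CAST (Mrps33). Of 24 subunits of oxidative phosphorylation, Ndufa12, Uqcrb, Cox7c and Ndufs4 were called towards 129 and Atp5c1 towards CAST. Cox7c lies in a run of adjacent called genes with WT shares of 99.5% to 100%, described below. Ndufa12, of complex I, kept its side, with 83.4% in WT (811 and 161 reads), 78.6% in XiΔXist, 84.3% in shSCR and 96.8% in shYY1.

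Cell division genes held few calls. Of 42 mitotic and S-phase genes, Ttk and E2f8 were called towards 129 and Ccnb2 towards CAST, 7.14% in all, and 0 of these 3 were past the fold in XiΔXist. Ttk, a kinase of the spindle checkpoint, had 44.6% against 24.2% in WT (3008 and 3739 reads) and a departure of 0.96 in XiΔXist. Ccnb2, cyclin B2, had 16.3% in WT (179 and 916 reads) and 48.0% in XiΔXist. Of 27 contractile and cytoskeletal genes 2 were called each way, and of 4 histones none. Of 15 genes on the sterol synthesis list only Me1 was called, which has 1 near-identical copy and overlaps a listed gene. Of 7 glycolysis genes only Pkm was called, which has 5 near-identical copies. Of 102 zinc finger genes, 6 were called each way (11.8%). Of 18 interferon-induced genes, Gbp9 and Plscr2 were called towards CAST, and of 4 genes of antigen presentation H2-M3 was called towards 129.

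Membrane proteins included 56 solute carriers, of which 4 were called towards 129 and 7 towards CAST. Slc7a2, a carrier of cationic amino acids, had 81.9% in WT (376 and 83 reads) and 89.3% in XiΔXist, and overlaps another listed gene. Slc27a6, a fatty acid transporter, had 11 and 163 reads in WT, 6.32%, and 1.01% in XiΔXist. The protocadherins are adhesion proteins that neurons are known to express from single alleles. Of 17, 3 were called towards 129 and 7 towards CAST (58.8%), with a median size of 1.63 beside 0.38 over all genes. Pcdhb20 had 705 and 93 reads in WT and Pcdha5 0 and 193. All 10 called genes overlap a listed gene in the annotation, and reads of shared exons cannot be given to 1 of them.

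Imprinted genes, expressed by parent of origin, were few among these genes. All 6 paternally expressed ones (Sfmbt2, Nnat, Mkrn3, Peg12, Zrsr1 and Impact) were called towards CAST, as Impact with 204 and 4181 reads, 4.65%, and 7.83% in XiΔXist. Of 6 maternally expressed ones Grb10 alone was called, with 1031 and 0 reads towards 129 and 148 and 0 in XiΔXist. The rule on neighbours left out others. Over all 4965 genes, 4 of 10 maternally expressed ones were called towards 129 and 1 towards CAST. All 8 paternally expressed ones were called towards CAST. Left out were, for example, Rian (5892 and 12 reads in WT), Peg10 (0 and 1762) and Sgce (2 and 1331). Rian lies in a run of 7 called genes from Meg3 to Mirg, with WT shares of 99.1% to 100%. Whether the uncalled genes are imprinted in fibroblasts was not tested.

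**Figure D5:**
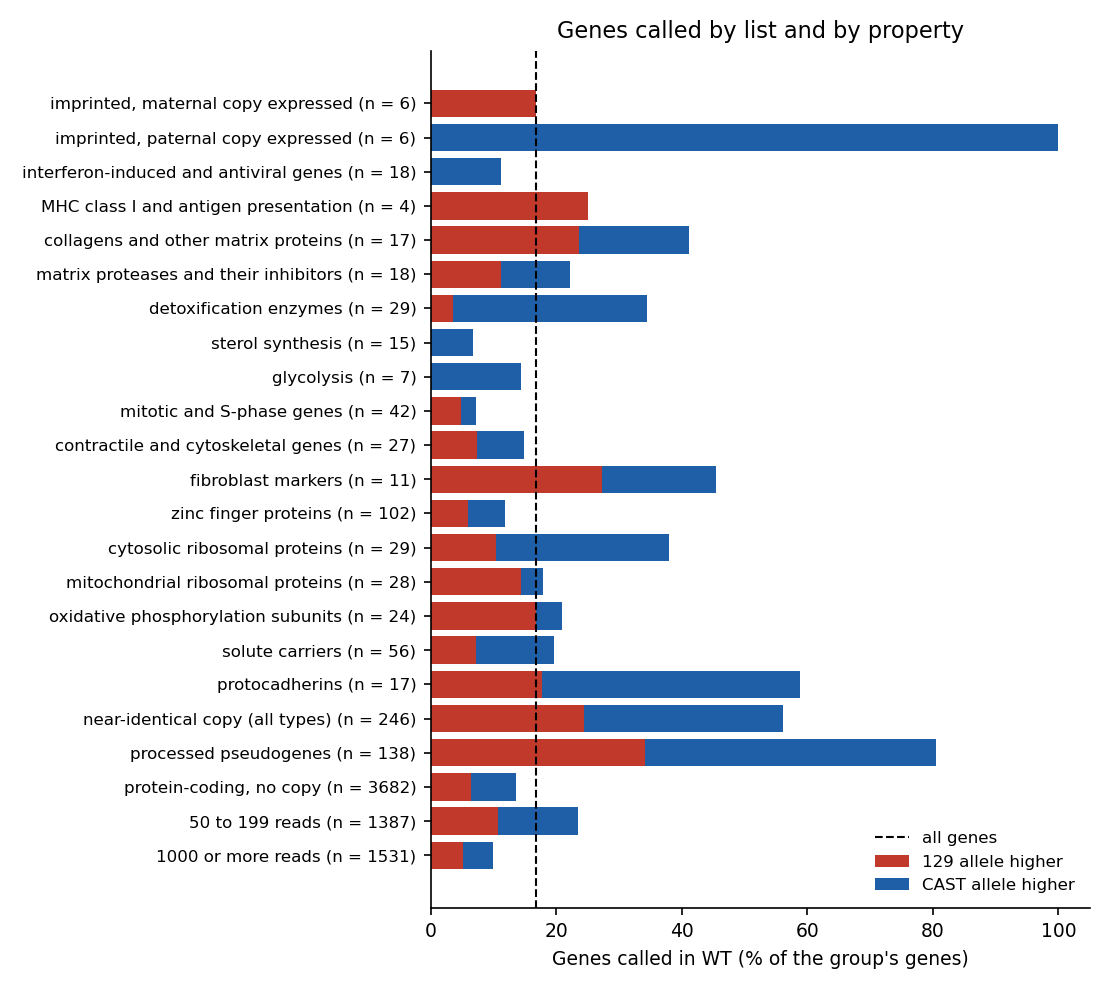
Percent of genes called towards 129 and towards CAST (stacked bars, x axis) for each gene list and property, with the number of genes. The dashed line marks the 16.7% of all 4440 genes. Processed pseudogenes reach 80.4% and the mitotic and S-phase genes 7.14%, while histones and other-cell-type markers, with none called, are not drawn.

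Processed pseudogenes, copies of spliced transcripts inserted elsewhere in the genome, had the highest share of calls among the 6 gene classes compared. Of 138, 47 were called towards 129 and 64 towards CAST (80.4%), and 100 of the 106 that could be read in XiΔXist (94.3%) had the same call. Of 138, 102 resemble a protein-coding gene at 90% identity or more, and 87 of these were called. Where the gene was itself a called gene here, 10 copies went the opposite way to it and 3 the same way. For 37 called copies the gene was not called, and for 37 it was not among the genes described. A read of such a gene and one of its copy cannot be told apart where it covers no base that differs between them.

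The sequences of a pair of such copies are shown beside the genes they resemble because so few bases part them. They are from GENCODE M21 on GRCm38, the reference strain C57BL/6J and so neither of the alleles counted, with the differing bases in capitals. Gm21399 (chr8:129253156-129253245, plus strand) differs from the Prdx1 coding sequence, shown from position 159 to 248, by T183C, C189A and C225A, where the Prdx1 base comes first and positions count from the start of the coding sequence, and by 10 of 597 bases in all. Gm9794 (chr6:66875447-66875536, minus strand) differs from the Rpl23 coding sequence, shown from position 208 to 297, by C253T, the 1 difference in 420 aligned bases.
Gm21399: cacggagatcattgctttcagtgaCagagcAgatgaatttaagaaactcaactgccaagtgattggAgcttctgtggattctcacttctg
Prdx1: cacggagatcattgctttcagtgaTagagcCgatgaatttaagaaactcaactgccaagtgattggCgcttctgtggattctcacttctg
Gm9794: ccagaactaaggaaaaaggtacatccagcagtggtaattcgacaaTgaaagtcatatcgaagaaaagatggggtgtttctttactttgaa
Rpl23: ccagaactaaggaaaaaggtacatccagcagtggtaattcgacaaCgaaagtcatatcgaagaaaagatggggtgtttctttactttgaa

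The Gm21399 copy had 4505 and 338 reads in WT, 93.0%, and 93.3% in XiΔXist, while Prdx1, a peroxide reductase, had 2341 and 2619, 47.2%, and was not called. In the hairpin pools Gm21399 had shares of 45.7% and 47.1%. The Gm9794 copy had 1 and 6054 reads in WT, 1 and 8481 in XiΔXist, 0 and 1857 in shSCR and 2 and 1933 in shYY1, against 595 and 276 reads of Rpl23 in WT. The Gm9794 locus thus kept its CAST side in all pools, and Gm21399 did not keep its 129 side. Tpt1-ps3, identical in the part that aligned to the gene Tpt1, had 4266 and 17 reads against 79 and 44 for Tpt1. Psma3, a proteasome subunit called towards CAST (2055 and 8365 reads), has the copy Gm13835, called towards 129 (1260 and 124), and Lsm5, of the spliceosome (401 and 3603), has Gm10074 (1375 and 1).

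Near-identical copies, read number and change of level went with the share of genes called. Of 246 genes with such a copy 56.1% were called, and of 4194 without one 14.4%. Called genes were 23.5% of those with fewer than 200 reads, 17.3% of those with 200 or more but fewer than 1000 and 9.93% of those with 1000 or more. Overlap with another listed gene made little difference to the share called, at 16% with it and 17.5% without. The same call was found in XiΔXist for 213 of 332 called genes with overlap (64.2%) and 239 of 311 without it (76.8%). Among 3670 protein-coding genes without such a copy and off the imprinted lists, 236 were called towards 129 and 255 towards CAST (13.4%), of which 123 of 198 and 139 of 222 had the same call in XiΔXist. A copy was counted where it matched at least 50% of the gene's own longest transcript, which misses shorter copies of Lsm5, Uqcrb, Psma3, Scoc, Ccnh, Prdx2 and others. Without the genes matched by such a copy as well, 228 and 239 of 3473 were called (13.4%), and 118 of 190 and 125 of 206 recurred.

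Genes whose level differed between the WT and XiΔXist lines were called more often in WT. Of the same protein-coding genes, 3306 had allele-assigned CPM within 2-fold between the lines, and 162 and 172 of them were called (10.1%). Of 200 genes that differed by 2- to 4-fold, 27 and 42 were called (34.5%), and of 164 that differed by more than 4-fold, 47 and 41 (53.7%). Among genes with 1000 or more WT reads, 47.8% of 23 over 4-fold lower in XiΔXist were called, and 6.54% of 1331 within 2-fold. All 5 genes of that depth over 4-fold higher in XiΔXist were called. Efemp1, Fst, Slc5a7 and B3gnt5 belong to the genes that were lower in XiΔXist. A WT level enters both the reads behind a call and the difference between the lines, and its part in this pattern was not tested.

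Adjacent genes were compared as pairs, with 16.7% of all genes called. Of 3803 pairs, both genes were called in 148, in the same direction in 87 and in opposite directions in 61. Elmod2 and Scoc on chromosome 8, neighbours without overlap, went opposite ways, with 2016 and 970 reads for Elmod2, which regulates small GTPases (67.5%), and 330 and 883 for Scoc, a coiled-coil protein of the Golgi (27.2%). In XiΔXist, Elmod2 had 2063 and 1029 reads and Scoc 341 and 794, so both kept their direction. Scoc is matched at 98.6% identity by the pseudogene Gm7335, which had 459 and 0 reads in WT. The reads of Scoc are therefore uncertain in both lines. Among runs of at least 3 called genes in the same direction, one on chromosome 13 (chr13:85189408-86046904) held Ccnh, Rasa1, Gm22574 and Cox7c, with WT shares of 99.5% to 100% and XiΔXist shares of 11.6% to 53.4%. Ccnh, cyclin H, had 3256 and 2 reads in WT and 7366 and 10068 in XiΔXist, and Rasa1, a GTPase-activating protein for Ras, had 1716 and 2 and then 4951 and 9135. In that run nearly no CAST transcript was read in WT. A run on chromosome 9 (chr9:106170928-106375724) of Wdr82, Ppm1m, Alas1 and Dusp7 had WT shares of 28.6% to 44.2% and XiΔXist shares of 50.5% to 62.5%.

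In all, 11 genes were past the fold in opposite directions in WT and XiΔXist. The inflammatory chemokine gene Cxcl1 had 1 and 100 reads in WT, and 524 and 212 in XiΔXist, 71.2%. Snx10, a sorting nexin of endosomes, had 62 and 317 reads in WT, 16.4%, and 692 and 58 in XiΔXist, 92.3%. Slc4a4, a bicarbonate transporter, had 1392 and 323 in WT, 81.2%, and 9 and 113 in XiΔXist, 7.38%. The Hgf gene for hepatocyte growth factor had 515 and 79 in WT and 362 and 628 in XiΔXist, and Zfp709, a zinc finger gene, 39 and 336 and then 123 and 17. These genes were read mostly from different alleles in the clonal lines.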

How the data were processed

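RNA from 8 MEF samples (4 groups of 2) was sequenced. The authors pooled the samples of a group, aligned reads to a genome with strain SNPs masked (TopHat), kept those of mapping quality 30 or more, split them by allele (SNPsplit) and counted them per gene (featureCounts 1.6.3). The deposited tables hold these raw counts. Strand use and the annotation release are not given in the sources used here. Of 46078 gene IDs, 45143 matched GENCODE M21 (GRCm38) and 935 did not.

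Genes of the WT pool with at least 50 reads and a local median 129 share of 10% to 90% over 20 neighbours were kept. Departures used a pseudocount of 0.5, and a call needed 2-fold and a Wilson 95% interval without the local median. With 1 pool a group, no model was fitted and nothing was tested across replicates. A near-identical copy had 90% identity over at least 50% of the gene's own longest transcript (blastn 2.17.0). A limit of 3 reads replaced 0 in folds given as "at least". Python 3.11.15, numpy 2.4.6, pandas 2.3.3, scipy 1.17.1 and matplotlib 3.10.9 were used. The call was checked on drawn reads with known shifts, which held counting error only and no bias of mapping.

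Genes named were, in each direction, the 8 largest departures among called protein-coding genes with 200 or more reads, no overlap, no copy and no imprinting, the 6 most read, the 2 largest of each list, those nearest the fold, and neighbouring pairs. The genes and lists were chosen with earlier results of these data known. The 80% rule on neighbours, repeats of the naming rule within it, genes chosen for recurring in XiΔXist and further examples in the text were chosen after the values were seen.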

Additional observations from a re-analysis of the deposited data

Results flagged for a closer look

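The 11 genes past the fold in opposite directions in WT and XiΔXist are given here as log2 departures, WT first. The difference between the lines was not tested, since each is 1 pool. The values were 2.37 and -1.62 for Adam22, -1.22 and 1.15 for Aspa, 7.52 and -2.85 for Cox7c, -7.14 and 1.05 for Cxcl1, 1.24 and -1.71 for Hgf, and -1.46 and 1.92 for Mfsd2a. They were -3.82 and 4.01 for Nat2, 1.09 and -3.75 for Slc4a4, -2.42 and 3.53 for Snx10, -3.05 and 2.77 for Zfp709, and 1.57 and -4.03 for Zfp808. Aspa and Mfsd2a had under 100 reads in WT, Zfp808 has 2 near-identical copies, and Adam22, Hgf, Zfp808 and Cox7c overlap another listed gene. Cox7c lies in the run from Ccnh to Cox7c, with WT shares of 99.5% to 100%, so its WT value is shared by its neighbours.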

How the results depend on the processing

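The counts below are over all 4965 genes, in the order towards 129, towards CAST and same call in XiΔXist, where the values reported were 518, 523 and 659. A read minimum of 1 gave 894 and 1075 calls. A fold of 1.5 gave 871, 931 and 1149, and a fold of 4 gave 285, 233 and 341. Reading each gene against its whole chromosome gave 1437 towards CAST and 1378 same calls, and pooling the reads of the neighbours gave 971 towards 129 and 1106 same calls. Leaving out genes that overlap another gave 248, 259 and 352, of fewer genes. Minimums of 20 or 100 reads, 5 or 20 neighbours a side, other limits on the surroundings, a 99% interval, a larger pseudocount, protein-coding genes alone, no copies and no imprinted genes kept the counts within 1.5 times, as did, chosen after the data were seen, leaving out genes matched by a copy (434, 415 and 491), neighbours read from both alleles (547, 445 and 629) and the 80% rule (356, 385 and 448, with that rule applied in XiΔXist too). Of 755 values of 128 named genes, 696 kept their side and direction, 34 fell under and 15 rose past the fold, and 10 changed direction. Against the whole chromosome these were Tm4sf1 (-2.47), Postn (-3.48), Klf10 (-2.70), H2-M3 (-6.82), Ttk (-0.0016), E2f8 (-10.27), Zfp507 (-0.72), Rad21 (-2.09) and Sema5a (-7.60), and against neighbours read from both alleles Ext1 (0.36). The chromosome medians took in the regions left out above. In WT they stood at 97.0% on chromosome 3, 99.9% on chromosome 7, 99.965% on chromosome 15 and 99.6% on chromosome 17. On chromosome 9, which holds Ttk, the median was 44.6%. The cause was not tested. No paired analysis was possible because the tables pool the samples of a group, and for the same reason no sample could be left out. Depth limits the hairpin pools most, and genes under 50 reads were not called.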
